A study of Mus musculus with 30 samples.

Results

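The replication-dependent histone genes are the many small gene copies that encode the H1, H2A, H2B, H3 and H4 proteins. They were taken as every gene of the expression tables whose symbol starts with Hist1h, Hist2h, Hist3h or Hist4h, which gave 67 genes of 29555. They comprised 6 H1, 20 H2a, 16 H2b, 12 H3 and 13 H4 genes, of which 54 belong to the Hist1 cluster, 9 to Hist2, 3 to Hist3 and 1 to Hist4. A further 3 symbols of the families, Hist1h2bh, Hist1h2bm and Hist2h2bb, are not analysed here.

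RNA-seq and ATAC-seq, which reads open chromatin, were performed on mouse epiblast stem cells (EpiSCs), primed pluripotent cells that resemble the epiblast shortly before gastrulation, and on definitive endoderm made from them. The strains were C57BL/6 (B6), PWK/PhJ (PWK, an inbred strain of wild origin), DBA/2J (DBA) and the F1 hybrid B6.129 (B6129F1). RNA-seq covered 5 B6, 3 PWK, 3 B6129F1 and 1 DBA EpiSC libraries and 4 B6 endoderm libraries, and ATAC-seq covered 4 B6, 2 PWK and 1 DBA EpiSC libraries and 4 B6 endoderm libraries. All EpiSCs were at passage 5 to 10 and grew with feeder cells in an N2B27-based medium that held Fgf2, Activin A and the Wnt pathway inhibitor NVP-TNKS656, and they were lifted with collagenase. For endoderm, B6 EpiSCs received CHIR99201 and Activin A for 16 h and then Activin A and LDN193189 for 24 h, while another label field gives 46 h in all. The endoderm cells were detached with accutase and enriched for CXCR4+ cells with magnetic beads, a step that the EpiSCs did not go through. PWK endoderm is not analysed here. The labels number the biological replicates but do not say whether these are separate cultures or animals, so the p-values measure the spread between these samples only.

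Replication-dependent histone genes are transcribed in S phase, when new nucleosomes are needed for the copied DNA. Their mRNAs end in a stem-loop that the protein Slbp binds and, unlike other mRNAs, normally carry no poly(A) tail. Some copies also give polyadenylated transcripts, in particular in cells that leave the cell cycle. The RNA of this study was selected for poly(A), so the values below are of histone RNA that passed this selection and not of all histone mRNA. How reads that match several near-identical copies were counted is not given in the sources used here, and the split between copies of 1 class is therefore uncertain.

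To show what the genes share in sequence, promoter stretches of an H1, an H2a, an H3 and 2 H4 genes are printed below, each the 200 bases before the annotated start from RefSeq (build GRCm38.p6), 5′ to 3′ on the gene's strand. Hist1h1b, Hist1h2ap, Hist1h3e and Hist1h4d rose in endoderm, and Hist4h4 differed between strains. Capitals mark matches on either strand to TATAAA (the box bound by the TATA-binding protein), CCAAT (the box of that name, which reads ATTGG on the other strand), ATTTGCAT (octamer), AAACACA (H1 box) and GGTCCG (core of the H4 element).
Hist1h1b, chr13:21780626-21780825, minus strand: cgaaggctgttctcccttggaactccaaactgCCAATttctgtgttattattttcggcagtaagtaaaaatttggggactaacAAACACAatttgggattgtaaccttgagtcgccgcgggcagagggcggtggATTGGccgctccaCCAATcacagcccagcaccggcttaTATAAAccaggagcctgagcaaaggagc
Hist1h2ap, chr13:21833476-21833675, minus strand: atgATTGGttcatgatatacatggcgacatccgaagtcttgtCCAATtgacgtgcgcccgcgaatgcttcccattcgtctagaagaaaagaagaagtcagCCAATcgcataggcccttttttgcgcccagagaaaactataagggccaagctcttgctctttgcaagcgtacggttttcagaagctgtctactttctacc
Hist1h3e, chr13:23562386-23562585, minus strand: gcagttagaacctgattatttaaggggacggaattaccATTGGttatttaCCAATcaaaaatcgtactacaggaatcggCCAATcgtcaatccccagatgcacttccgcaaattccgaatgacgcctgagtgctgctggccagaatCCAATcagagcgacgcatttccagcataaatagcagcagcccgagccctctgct
Hist1h4d, chr13:23581368-23581567, plus strand: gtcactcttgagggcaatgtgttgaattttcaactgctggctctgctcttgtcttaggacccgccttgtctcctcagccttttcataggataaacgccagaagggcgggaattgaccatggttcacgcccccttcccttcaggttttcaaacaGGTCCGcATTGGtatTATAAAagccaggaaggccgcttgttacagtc
Hist4h4, chr6:136804432-136804631, minus strand: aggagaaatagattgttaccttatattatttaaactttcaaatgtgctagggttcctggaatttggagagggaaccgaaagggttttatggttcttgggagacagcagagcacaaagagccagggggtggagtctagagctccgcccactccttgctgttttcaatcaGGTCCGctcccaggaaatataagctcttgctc

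RefSeq held a promoter window of 300 bases (250 before and 50 after the start) for 59 of the 67 genes, and the motifs sorted the windows by class. CCAAT was found in all 6 H1, 18 H2a, 13 H2b and 10 H3 windows but in 3 of 12 H4 windows, against 37.4% of all 32851 promoter windows of that length. GGTCCG was found in 11 of 12 H4 windows, in 1 H3 window and in none of the H1, H2a and H2b windows, against 8.25% of all promoters. AAACACA was found in 5 of 6 H1 windows, 2 H2a windows and 1 H2b window (7.18% of all promoters). ATTTGCAT was found in 7 H2a and 4 H2b windows and in no other (1.74%), and TATAAA was spread over the classes, in 35 of 59 windows (13.6%). The windows of 10 H2a genes overlap that of an H2b neighbour by 220 to 279 bases. A site there can count in both classes. A match is a stretch of letters and not a measured binding site. The windows of Hist1h2bq and Hist1h2br, 2 H2b copies, carried the same base at all 300 aligned positions. Most of the window of Hist1h2ap, the H2a neighbour of Hist1h2br, also stands in that of Hist1h2ao, the neighbour of Hist1h2bq. It is shifted there, so position by position the 2 windows do not match.

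The RNA libraries of EpiSCs held 24529054 to 29947841 counts, and those of endoderm replicates 2, 44, 4 and 51 held 22829536, 25410448, 59995667 and 66563933. The ATAC libraries held 3751526 to 9571127 counts. RNA levels are given as CPM, the counts scaled to a common library total of 1000000. The 5 endoderm markers (Sox17, Foxa2, Gata6, Cer1, Cxcr4) summed to 25.6 to 271 CPM in EpiSCs and to 5233 to 11673 CPM in endoderm, and of the EpiSC markers Pou5f1, Sox2 and Nanog were lower and Otx2 and Fgf5 higher in endoderm. The 9 feeder fibroblast markers (Col1a1, Col1a2, Col3a1, Postn, Thy1, Lum, Dcn, Pdgfrb, Twist2), none of them at 0 in every library, summed to 52.2 to 2728 CPM in EpiSCs and to 62.6 to 226 CPM in endoderm, and 5 visceral endoderm markers to 0.354 to 1.54 and 3.29 to 15.2 CPM.

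Histone RNA was scarce in EpiSCs. All 67 genes together gave 20.5 to 68.6 CPM (median 33.4) over the 12 EpiSC libraries, which is 512 to 1979 counts per library. Only 7 genes reached a mean of 1 CPM, namely Hist1h2bc, Hist1h1c, Hist3h2a, Hist1h4i, Hist2h2be, Hist3h2ba and Hist4h4, and 60 stayed under it. H2b genes made up 35.2 to 50% of this RNA and H2a genes 8.42 to 15.7%. Of the 67 gene models, 7 span more than 1000 bp, and these long models, among them Hist1h2bc and Hist2h2be, carried 21.3 to 38.0% of the histone CPM in EpiSCs. For the 60 compact models, of 360 to 911 bp, levels can be compared per length. On that scale the linker histone gene Hist1h1c was first with 7.83 CPM per kb (mean of 12 EpiSC libraries), followed by the H4 gene Hist1h4i with 6.51, the H2A gene Hist3h2a with 5.23, the H2B gene Hist3h2ba with 3.44 and the H4 gene Hist4h4 with 3.07 CPM per kb. The order was not that of every strain. In B6, Hist1h4i (9.84 CPM per kb) stood above Hist1h1c (6.89), as it did in B6129F1 (6.57 and 2.69), while in PWK Hist1h1c (14.4) was followed by Hist3h2a (8.95) and Hist4h4 (7.87) and Hist1h4i was at 2.33. The libraries of these neighbours overlapped: in CPM, Hist1h1c ran from 1.63 to 11.4, Hist1h4i from 0.439 to 7.72 and Hist3h2a from 0.934 to 4.71.

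Endoderm held far more histone RNA than EpiSCs, and most of the increase was of H2A. Over the 67 genes the endoderm libraries gave 1777 (replicate 2), 517 (44), 476 (4) and 917 (51) CPM, each above every EpiSC library. The H2a sum was 1585, 460, 420 and 814 CPM in endoderm, a mean of 820 ± 540 (SD, n = 4), against 4.90 ± 2.55 in B6 EpiSCs (SD, n = 5), a ratio of means of 167. The H1 sum was 101, 29.1, 28.0 and 46.6 CPM in endoderm against 3.34 to 11.6 in B6 EpiSCs (ratio 7.13), and the H4 sum was 40.8, 12.8, 11.9 and 27.8 against 4.95 to 11.5 (ratio 3.43). For H1, H2a and H4 the groups did not overlap. The H2b sum, 39.3, 9.74, 11.3 and 18.9 CPM against 8.56 to 25.1, and the H3 sum, 11.2, 5.11, 4.16 and 9.30 against 1.26 to 4.45, overlapped (ratios 1.35 and 2.37). Without the gene of highest mean CPM in its class, the log2 ratio of means was 4.12 for H1 (2.83 with Hist1h1c) and 5.67 for H2a (7.39 with Hist1h2ap).

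**Figure D1:**
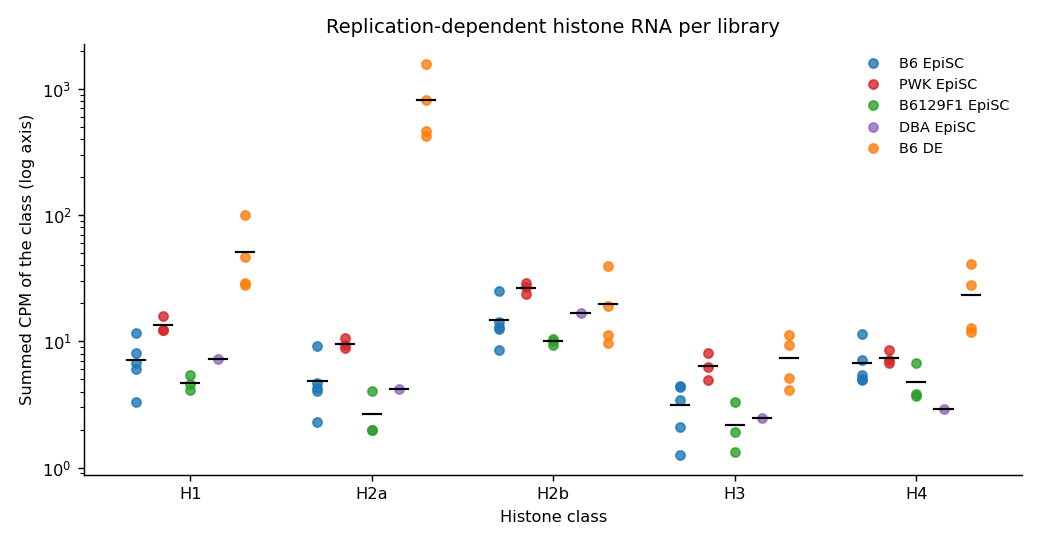
CPM summed over the genes of each histone class (x axis) in every RNA library (points, log axis), coloured by group, with the group mean as a bar. The H2a points of the 4 endoderm libraries, 420 to 1585 CPM, stand apart from all EpiSC libraries, while the H2b points overlap.

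The makeup of histone RNA differed as well. H2a genes carried 88.4 to 89.2% of the histone CPM in the 4 endoderm libraries and H2b genes 1.89 to 2.38%. The H2a to H2b ratio was 0.189 to 0.399 in EpiSCs and 37.1 to 47.2 in endoderm. In the nucleosome the H2A and H2B proteins are present in equal number. The long gene models carried 1.06 to 1.61% in endoderm. These are bulk samples, in which fewer cells of a type and less RNA per cell cannot be told apart.

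Gene by gene, 36 of the 67 were abundant enough to be tested in the comparison of B6 endoderm with B6 EpiSCs, and 21 of them rose, none fell and 15 did not pass an adjusted p of 0.05. Over all 14085 genes tested, 62% were called, 31.5% as risen and 30.6% as fallen. The median log2 change of the tested histone genes was 2.10, against -0.01 over all genes. The other 31 were too low for the test, and with no filter on low counts the median over all 67 was 1.27 with 56 above 0. Of the 36, 19 had all endoderm libraries above all B6 EpiSC libraries, which holds for 27.2% of all genes tested, and none had them all below, against 28% of all genes. By class, 5 of 5 tested H1 genes rose, 12 of 13 H2a, 1 of 8 H2b, 2 of 5 H3 and 1 of 5 H4 genes, with median log2 changes of 2.87, 4.84, 0.80, 0.36 and 1.06. The filter on low counts bears on these counts. It asked for about 0.374 CPM in 4 libraries, and 23 of the 36 genes, among them 12 of the 13 H2a, 3 of the 5 H1 and 4 of the 5 H3 genes, did not reach that in the EpiSC libraries alone. They came into the test through their endoderm libraries, so a rise among them (16 of 23) was partly set by the filter. Of the 13 that reached it in EpiSCs alone, 5 rose. The adjusted p of the 21 ranged from 2.34e-06 to 0.0377 (quasi-likelihood test of edgeR, Benjamini-Hochberg adjusted).

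**Figure D2:**
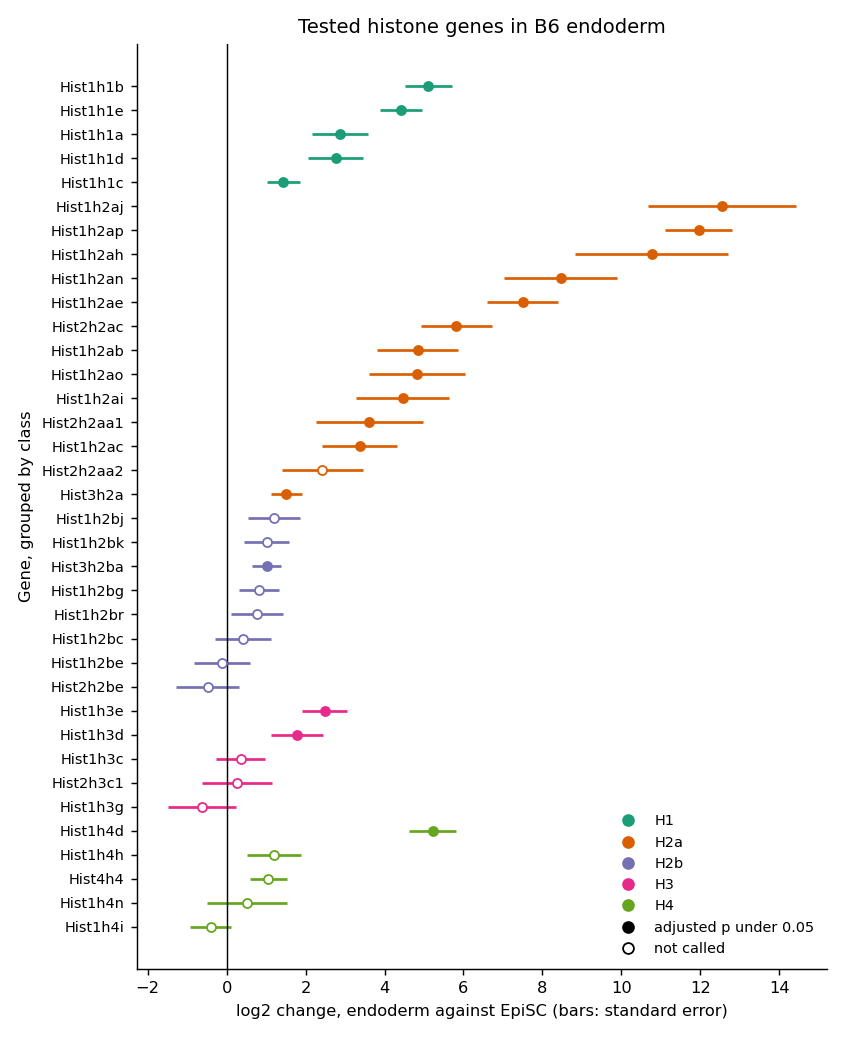
Log2 change of each tested histone gene in B6 endoderm against B6 EpiSCs, with its standard error, grouped by class. Filled points passed an adjusted p of 0.05 and open points did not. All 5 H1 and 12 of 13 H2a genes are filled, against 1 of 8 H2b genes.

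H1 proteins bind the linker DNA between nucleosomes. In the order of endoderm replicates 2, 44, 4 and 51, Hist1h1e (ENSMUSG00000051627, chr13:23621777-23622558) gave 43.6, 11.8, 8.35 and 15.6 CPM, and in the order of B6 EpiSC replicates 51, 44, 2, 4 and 1 it gave 1.17, 1.32, 0.904, 0.645 and 0.746. The log2 change was 4.42 (SE 0.53, adjusted p = 5.28e-05). Every endoderm library lay above every EpiSC library, with replicate 2 the highest. Hist1h1b (ENSMUSG00000058773, chr13:21779832-21780625) gave 26.2, 4.91, 6.12 and 12.2 CPM in endoderm and 0.264, 0.396, 0.472, 0.502 and 0.196 in EpiSCs, a log2 change of 5.11 (SE 0.60, adjusted p = 4.47e-05), again without overlap. Hist1h1c (ENSMUSG00000036181, chr13:23738807-23739531) encodes a linker histone that is also made outside S phase. It rose least of the tested H1 genes, from 9.31, 5.28, 4.76, 3.87 and 1.77 CPM to 17.2, 9.66, 11.7 and 14.1, a log2 change of 1.43 (SE 0.42, adjusted p = 0.0121). Its lowest endoderm library was only just above its highest EpiSC library. Hist1h1d gave 7.41, 1.38, 0.980 and 2.61 CPM against 0.235 to 0.825 and Hist1h1a 6.63, 1.34, 0.794 and 2.03 against 0.231 to 0.681, with log2 changes of 2.76 (SE 0.69) and 2.87 (SE 0.70), and both rose. Without endoderm replicate 2 the change of Hist1h1d was 1.83, still called. With a block for the replicate number, on the libraries that share numbers, it was 2.14 and not called (adjusted p = 0.0557). The sixth H1 gene was too low to test.

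In the counts as deposited, a single H2A copy, Hist1h2ap (ENSMUSG00000094777, chr13:21833024-21833475), held most of the H2a counts of endoderm. Its promoter window is in large part repeated at Hist1h2ao, and how reads were split between such copies is not known. It gave 863, 294, 390 and 766 CPM in endoderm replicates 2, 44, 4 and 51, and in B6 EpiSCs 0.339 in replicate 51, 0.363 in replicate 44 and 0 in the other 3. This was 17701, 7481, 23068 and 49873 counts against 9, 11, 0, 0 and 0. The log2 change was 11.96 (SE 0.86, adjusted p = 2.34e-06). Per length it stood at 1279 CPM per kb in endoderm and 0.216 CPM per kb over all EpiSCs. It made up 54.4, 63.9, 92.8 and 94.1% of the H2a sum of the endoderm libraries. It was at 0 in the DBA library and all 3 B6129F1 libraries, and at 0 to 0.272 CPM in PWK EpiSCs.

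The next H2a copies were high in only some of the endoderm libraries. Hist1h2aj (ENSMUSG00000080076, chr13:21721442-21721801), which RefSeq lists as a pseudogene, gave 325 and 86.9 CPM in replicates 2 and 44 but 3.06 and 7.33 in replicates 4 and 51. Its B6 EpiSC libraries held 2 counts in all (0.0753 CPM in replicate 51 and 0 in the other 4) against 9541 in endoderm, a ratio per total count of 3668 with a counting interval of 1015 to 30295 (95%, exact). Hist1h2ah (ENSMUSG00000069302, chr13:22035122-22035643) gave 264 and 49.5 CPM in replicates 2 and 44 and 1.5 and 1.87 in replicates 4 and 51, against 0.066 and 0.157 in EpiSC replicates 44 and 2 and 0 in the other 3. The log2 changes were 12.55 (SE 1.88, adjusted p = 0.000226) and 10.76 (SE 1.93, adjusted p = 0.00074). Without replicates 2 and 44 they were 8.17 and 5.16, both still called. All 4 endoderm libraries exceeded the EpiSC libraries, but among the endoderm libraries these genes varied far more than Hist1h2ap.

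Hist1h2ae gave 43.5, 7.82, 9.64 and 13.1 CPM in endoderm against 0 to 0.215 in B6 EpiSCs, a log2 change of 7.50 (SE 0.90, adjusted p = 5.41e-05). Hist1h2ai gave 14.1, 3.22, 0.456 and 0.907 CPM against 0 to 0.393 (log2 change 4.46, SE 1.18, adjusted p = 0.00727), and this value was 2.79 without replicate 2 and 1.63 without the shallower replicates 2 and 44, when the adjusted p was 0.204. With a block for the replicate number, the change of Hist1h2ai was 3.40 and not called (adjusted p = 0.0714). Hist1h2an and Hist2h2ac had 1 and 3 counts over the B6 EpiSCs and 390 and 212 over endoderm, ratios per total count of 299.9 (53.5 to 11875) and 54.3 (18.3 to 266). Hist1h2ab, Hist1h2ao, Hist1h2ac and Hist2h2aa1 rose as well, with log2 changes of 4.84, 4.82, 3.37 and 3.62, to endoderm means of 1.93 to 5.20 CPM. Hist3h2a (ENSMUSG00000078851, chr11:58954685-58955192), an H2A gene outside the large cluster, was the H2a gene with the highest CPM in EpiSCs. It gave 9.17, 3.61, 6.09 and 7.99 CPM in endoderm against 4.18, 1.88, 2.24, 1.90 and 1.88, and its rise, a log2 change of 1.51 (SE 0.39, adjusted p = 0.00687), came with an overlap, since endoderm replicate 44 lay below EpiSC replicate 51. Hist2h2aa2 was the tested H2a gene that was not called, at 8.29, 2.20, 1.67 and 2.07 CPM against 1.92, 0, 0.944, 0.358 and 0.196 (log2 change 2.43, SE 1.03, adjusted p = 0.061). Among the 7 untested H2a genes, Hist1h2ag stood at 2.54, 0.157, 0.338 and 3.04 CPM against 0 to 0.490 and Hist1h2af at 9.17, 2.55, 0 and 0.108 CPM against 0 to 0.462.

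**Figure D3:**
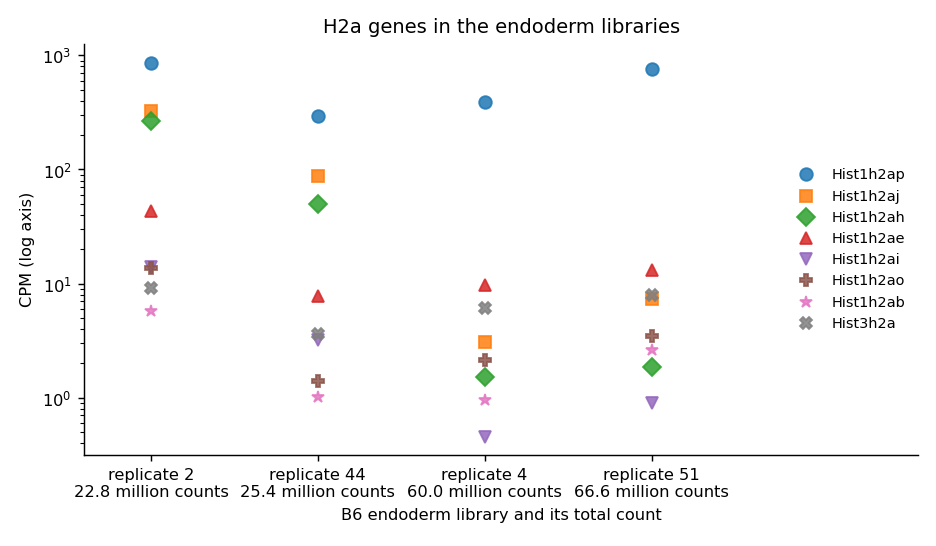
CPM (log axis) of selected H2a genes in each of the 4 B6 endoderm libraries, which are labelled with their total counts. Hist1h2ap stays between 294 and 863 CPM, while Hist1h2aj and Hist1h2ah are high in replicates 2 and 44 and low in replicates 4 and 51.

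The endoderm libraries fell into the shallower replicates 2 and 44 and the deeper replicates 4 and 51. Of the 31 histone genes with an endoderm mean of at least 1 CPM, 9 had both shallower libraries above both deeper ones and 1, Hist2h2be, the reverse, as did 14.5% and 26.6% of all 12166 genes at that level. The means of both shallower libraries were 109, 92.8, 39.7 and 12.7 times those of the deeper ones for Hist1h2af, Hist1h2ah, Hist1h2aj and Hist1h2ai, while for Hist1h2ap the ratio was 1.00, for Hist1h1c 1.04 and for Hist1h4d 1.47. With the deeper libraries left out, 22 genes were called higher and 1 lower (Hist2h2be, log2 change -2.51), and with the shallower ones left out, 18 were called higher and none lower. Sequencing depth and whatever else sets these pairs of libraries apart cannot be told apart.

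H2A and H2B genes often lie back to back and share a promoter region. There were 10 such pairs with starts 164 to 281 bp apart on opposite strands. The H2A genes Hist1h2aa, Hist1h2ad, Hist1h2ag and Hist1h2ak were too low to test. In the other 6 pairs the H2A gene was tested and rose in endoderm, as did 31.5% of all genes tested. These 6 H2A genes did not reach the count filter in the EpiSC libraries alone, so their rise was partly set by the filter. No H2B partner was called, but both partners could be tested in only 3 pairs. The partners Hist1h2bl, Hist1h2bp and Hist1h2bq were too low to test. Opposite Hist1h2ap, at 578 ± 279 CPM in endoderm (SD, n = 4) and 0.140 ± 0.192 in B6 EpiSCs (SD, n = 5), the partner Hist1h2br, 268 bp away, was at 1.06 ± 0.963 and 0.633 ± 0.228 CPM (log2 change 0.78, SE 0.66, adjusted p = 0.323). Opposite Hist1h2ah (79.2 ± 125 against 0.0447 ± 0.0692 CPM), Hist1h2bk, 178 bp away, was at 1.61 ± 1.08 and 0.814 ± 0.346 CPM. Opposite Hist1h2ae (18.5 ± 16.8 against 0.0996 ± 0.0959 CPM), Hist1h2bg, 180 bp away, was at 0.635 ± 0.115 and 0.362 ± 0.15 CPM. In these 3 pairs the H2A means went from under 1 CPM to between 18.5 and 578, and the H2B means did not exceed 1.61 CPM in either state.

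**Figure D4:**
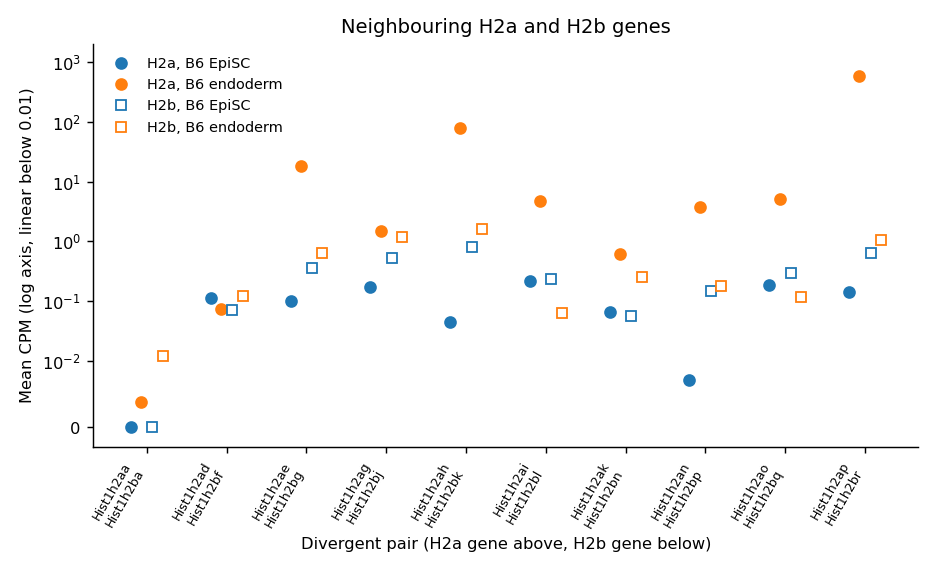
Mean CPM of the H2A gene and of its H2B partner in each of the 10 divergent pairs, in B6 EpiSCs and B6 endoderm (axis linear below 0.01 and logarithmic above). In the pair Hist1h2ap and Hist1h2br the H2A mean goes from 0.140 to 578 CPM and the H2B mean from 0.633 to 1.06.

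Among the H2b genes, whose products pair with H2A in the nucleosome, Hist3h2ba was the 1 that rose: 5.12, 2.67, 2.38 and 2.95 CPM in endoderm against 1.66, 1.45, 1.46, 2.11 and 1.65, without overlap (log2 change 1.01, SE 0.38, adjusted p = 0.0374). This call is near the threshold and was lost when endoderm replicate 2 or any of EpiSC replicates 1, 2, 44 or 51 was left out (adjusted p 0.0639 to 0.101), or both shallower endoderm libraries (0.153). Hist1h2bc (ENSMUSG00000018102, chr13:23684199-23692480), the histone gene with the highest CPM in EpiSCs and a long model, gave 23.9, 3.03, 3.87 and 5.78 CPM against 16.0, 5.97, 6.80, 4.66 and 2.08 (log2 change 0.42, SE 0.71, adjusted p = 0.626). Its groups overlapped, and endoderm replicate 2 stood alone. Hist2h2be, another long model, gave 0.0488, 0.550, 1.45 and 2.90 CPM against 1.51, 0.891, 1.61, 2.15 and 2.71 (log2 change -0.48, SE 0.79). Hist1h2bk gave 3.07, 0.707, 0.896 and 1.77 CPM against 1.32, 0.561, 0.826, 0.932 and 0.432, with overlap.

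H3 and H4 form the core tetramer of the nucleosome, and most of their copies stayed low. Hist1h3e, the H3 gene with the clearest rise, gave 3.27, 1.34, 0.710 and 2.07 CPM against 0.264, 0.462, 0.472, 0.215 and 0.275 (log2 change 2.48, SE 0.56, adjusted p = 0.00304), without overlap. Hist1h3d gave 1.61, 0.707, 0.524 and 1.94 CPM against 0.603, 0.330, 0.590, 0.143 and 0.118 with an adjusted p of 0.0377 that did not hold when endoderm replicate 2 or 51 or EpiSC replicate 1, 4 or 44 was left out (0.0712 to 0.106). Hist1h3c gave 1.12, 0.196, 0.254 and 0.799 CPM against 0.315 to 0.678 and Hist2h3c1 0.146, 0.393, 1.5 and 0.522 against 0.0392 to 1.24, both with overlap, and Hist2h3b, too low to test, gave 0.878, 0.354, 0.406 and 1.23 against 0 to 0.197. Hist1h4d (ENSMUSG00000061482, chr13:23581568-23581969) held most of the H4 increase: 29.7, 8.21, 7.35 and 18.4 CPM against 0.377, 0.594, 0.511, 0.573 and 0.118, a log2 change of 5.22 (SE 0.59, adjusted p = 3.73e-05). Every endoderm library exceeded every EpiSC library. Without Hist1h4d the log2 ratio of the H4 means fell from 1.78 to 0.22. Hist1h4i, the H4 gene with the highest CPM in EpiSCs, gave 4.00, 1.30, 1.64 and 4.75 CPM against 7.72, 2.57, 3.85, 2.54 and 3.14 (log2 change -0.40, SE 0.52, adjusted p = 0.518), and Hist1h4n 0.878, 0, 0.118 and 0.615 against 0.0785 to 0.527, both with overlap. Hist4h4 gave 1.76, 2.24, 1.15 and 0.922 CPM against 0.429 to 1.02 (log2 change 1.06, SE 0.47, adjusted p = 0.069).

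The genes that act on histone mRNA did not move together. Of 25 genes for its transcription, 3′ processing and decay, 8 rose and 7 fell, near the 31.5% and 30.6% of all genes tested. The median log2 change was -0.0024, against -0.01 over all genes. Slbp, the stem-loop binding protein, rose from 139 ± 16.6 CPM (SD, n = 5) to 363 ± 71.5 (SD, n = 4), a log2 change of 1.42 (SE 0.17, adjusted p = 4.5e-05). Npat, the coactivator of histone gene transcription in S phase, fell by 0.66 on the log2 scale (SE 0.24, adjusted p = 0.0341), from 79.2 ± 12.9 to 49.2 ± 17.8 CPM. Casp8ap2, a partner of Npat in histone locus bodies, was at 68.8 ± 24.0 and 57.9 ± 6.14 CPM (adjusted p = 0.477). Of the processing and decay genes, Dhx9, the uridyltransferase gene Tut4, the scaffold gene Sympk and the processing factor gene Zfp473 fell by 3.66, 2.11, 1.77 and 1.38, while the decay factor gene Lsm1 and the nuclease gene Mblac1 rose by 1.37 and 1.99.

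The replication-independent histone genes, whose mRNAs are in the main polyadenylated, rose almost as a group. Of 12 genes, 11 were tested and 10 rose and none fell, where 31.5% of all genes tested rose and 30.6% fell. The median log2 change was 1.5. H3f3a, which encodes H3.3, went from 628 ± 22.5 CPM (SD, n = 5) to 1724 ± 564 (SD, n = 4), H3f3b from 749 ± 33.6 to 1941 ± 285 and H2afz, which encodes H2A.Z, from 559 ± 75.6 to 1367 ± 576. H1f0, a linker histone of cells that divide little, went from 113 ± 37.1 to 643 ± 120 CPM, a log2 change of 2.54 (SE 0.25). The macroH2A genes H2afy2 and H2afy rose by 2.97 and 2.63, H2afx by 2.51 and H2afv by 1.85. H1fx was the tested gene that was not called, at 15.1 ± 4.46 CPM against 21.6 ± 5.69. Summed over the list, these genes gave 6084 to 9669 CPM in endoderm and 2106 to 2809.8 in EpiSCs.

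Histone chaperones, which carry histones to DNA, and S-phase genes were mixed. Of 22 chaperone genes 7 rose and 8 fell (median log2 change -0.14), where 31.5% of all genes tested rose and 30.6% fell. Hira, Supt16, Nasp, Cabin1 and Nap1l1 fell by 2.96, 1.69, 1.57, 1.24 and 1.23, and Asf1a rose by 1.14. Of 44 S-phase genes 16 rose and 10 fell (median 0.14), to be read beside the same shares of 31.5% and 30.6%. The checkpoint mediator Clspn, the polymerase gene Pola1 and the helicase gene Mcm5 fell by 2.28, 1.26 and 1.25. Rfc2, Fen1 and Ccne2 rose by 1.80, 1.52 and 1.41. Summed over the list, the S-phase genes gave 5669 to 7043 CPM in endoderm and 5646 to 6785 in B6 EpiSCs, so this sum, unlike that of the H2a genes, overlapped.

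More histone gene peaks lost accessibility in endoderm than gained it. In the ATAC-seq peak table of B6 EpiSCs and endoderm, 94 peaks lay within 500 bp of a histone gene, 78 could be tested, 29 lost accessibility in endoderm, 1 gained it and 48 did not pass. Over all 113870 peaks tested, 25% were lower and 32.6% higher. The median log2 change of the 78 was -0.45, with 68 below 0, against -0.01 over all peaks. In 20 of the 78 all endoderm libraries lay below all EpiSC libraries and in 2 they lay above, as did 23.2% and 30.6% of all peaks tested. When total counts replaced the scaling, the median of all peaks moved to -0.22 and 40 of the 78 were called lower, so the size of this count depends on the scaling, and 1 peak was again called higher.

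Peaks not within 100 bp of an annotated start were lower more often than those within it. Of 44 tested peaks within 100 bp of an annotated start, 11 were lower (median -0.31), and of the other 34, 18 were lower and 1 was higher (median -0.86). Some genes, such as Hist1h2aj, Hist1h2bc and Hist2h2be, had no promoter window and so no start here. Peaks at such genes can be among the other 34, as can peaks inside a long gene model. The model of Hist1h2be spans 37455 bp, and the Hist1h2be peak named next lies inside it, far from the start used here. The largest losses were a peak at Hist1h2be (chr13:23586569-23586638, coordinates as deposited, log2 change -3.27, SE 0.58), at 0.328 ± 0.247 CPM in endoderm and 3.61 ± 1.04 in EpiSCs (SD, n = 4 each), one beyond the end of Hist1h1a (chr13:23764587-23764721, -2.33, SE 0.41) and one near Hist1h1d (chr13:23555733-23555873, -1.92, SE 0.42). Hist1h1a and Hist1h1d both gained RNA. The peak that gained accessibility lay just beyond Hist3h2a (chr11:58955656-58955813) and gave 10.6, 12.8, 11.6 and 13.1 CPM in endoderm replicates 2, 4, 44 and 51 against 2.26, 1.52, 4.37 and 3.10 in EpiSC replicates 1, 4, 44 and 51, without overlap (log2 change 2.16, SE 0.31, adjusted p = 6.34e-06).

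Of the 21 histone genes whose RNA rose, 19 had a tested peak. At 12 of them at least 1 peak was lower, at 1 a peak was higher, and at 7 no peak was called (Hist3h2a had both a lower and a higher peak). A gene can have several peaks and share them with a neighbour, so 12 of 19 is not comparable with the 25% of all peaks. The like count for genes that did not rise is not given here. The start peak of Hist1h4d (chr13:23581418-23581832) changed by -0.12 (adjusted p = 0.586) while its RNA rose. A peak over the 3′ end of Hist1h1e (chr13:23621121-23621804), away from its start and near that of Hist1h2be, fell by 1.2. A peak beyond Hist1h1b (chr13:21779416-21779766) fell by 1.67. Between the divergent partners, 7 shared peaks were tested and none was called, among them those of Hist1h2ah and Hist1h2bk (chr13:22035395-22036128, -0.24, SE 0.18, adjusted p = 0.268) and of Hist1h2ae and Hist1h2bg (chr13:23571114-23571639, -0.46, SE 0.20, adjusted p = 0.0573).

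For the start of Hist1h2ap itself the peak table gives no value. The peaks between Hist1h2ap and Hist1h2br and between Hist1h2ao and Hist1h2bq were listed with 0 counts in all 8 libraries. In all, 7 of the 94 peaks at histone genes had 0 counts in every library of this table, against 1.55% of all 158917 peaks, and 11 of 101 in the table of EpiSC strains, against 2.77% of 181059. Such a peak gives no measure of accessibility.

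Between EpiSC strains, the differences were smaller. Most tested histone genes leaned higher in PWK than in B6, but the share called was below that of all genes. Leaving out 1 library gave 2 to 10 genes called higher. Against B6, 35 histone genes were tested in PWK EpiSCs, of which 4 were higher, 1 was lower and 30 did not pass, where 26.5% of all 14822 genes were called in either direction (12% higher, 14.5% lower). The median log2 difference was 0.91, with 28 of 35 above 0, against -0.01 over all genes. In 10 of the 35 all PWK libraries lay above all B6 libraries and in 1 below, as did 16.2% and 15.8% of all genes tested. The PWK sums were 1.87 times the B6 sum for H1, 1.96 for H2a, 1.81 for H2b, 2.06 for H3 and 1.10 for H4.

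Hist4h4 (ENSMUSG00000096010, chr6:136803993-136804431), the only gene of the Hist4 cluster, was the clearest strain difference. It gave 3.51, 3.51 and 3.35 CPM in PWK replicates BioRep698, BioRep695 and the one placed by strain only (called unnumbered), 0.791, 0.429, 0.865, 0.609 and 1.02 in B6, 0.692, 0.462 and 0.645 in B6129F1 and 0.294 in DBA. The log2 difference from B6 was 2.22 (SE 0.30, adjusted p = 0.000377) and from B6129F1 2.54 (SE 0.36, adjusted p = 0.000464), and every PWK library lay above every other library. Hist1h2bl (chr13:21715711-21716183) gave 1.57, 1.46 and 1.83 CPM in PWK against 0.264, 0.198, 0.393, 0.323 and 0 in B6 (log2 difference 2.76, SE 0.65, adjusted p = 0.00999), 0.173 to 0.484 in B6129F1 and 0.331 in DBA. Hist1h3h (chr13:21717628-21718115), its neighbour, gave 0.476, 0.563 and 1.56 CPM against 0.188, 0, 0.118, 0 and 0.0785 (log2 difference 3.45, SE 0.80, adjusted p = 0.00962), and without the unnumbered PWK library the adjusted p was 0.0677. Hist1h2br gave 1.21, 1.56 and 1.36 CPM against 0.353 to 0.865 (log2 difference 1.12, SE 0.36, adjusted p = 0.0436), a call lost without any 1 PWK library or without B6 replicate 1, 4 or 44 (adjusted p 0.0586 to 0.148).

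Hist1h4i (chr13:22040960-22041362) was the 1 gene lower in PWK. It gave 0.439, 0.893 and 1.48 CPM against 7.72, 2.57, 3.85, 2.54 and 3.14 in B6, a log2 difference of -2.08 (SE 0.54, adjusted p = 0.0167), and without PWK replicate BioRep695 or BioRep698 the adjusted p was 0.063 or 0.0655. B6129F1 gave 1.73, 4.16 and 2.06 CPM and DBA 0.883. No PWK library reached the lowest B6 library. How reads of a strain that differs from the reference genome were mapped is not given in the sources used here, and mapping and RNA level cannot be told apart for a strain difference in a multi-copy family.

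Feeder markers moved with the strains. They summed to 1901, 2609 and 2728 CPM in PWK, to 2477, 954, 1048, 342 and 52.2 in B6 replicates 51, 44, 2, 4 and 1, to 185, 120 and 137 in B6129F1 and to 1313 in DBA, and none of the 9 passed the test between PWK and B6 (median log2 difference 1.27). Hist1h2bc followed a like order: 12.6, 14.1 and 16.5 CPM in PWK, 16.0, 5.97, 6.80, 4.66 and 2.08 in the B6 libraries as listed, 2.42, 2.77 and 2.22 in B6129F1 and 8.24 in DBA. Hist1h1c did too, at 10.1, 11.4 and 9.77 CPM in PWK, 9.31 in B6 replicate 51 and 1.77 in replicate 1, 1.63, 2.38 and 1.85 in B6129F1 and 6.03 in DBA. The part of feeder cells in these 2 genes was not tested. For Hist4h4, Hist1h2bl and Hist1h3h, B6 replicate 51, the only B6 library with a feeder sum within the PWK range, gave 0.791, 0.264 and 0.188 CPM, below every PWK library. The part of feeder cells in these 3 genes was not tested either.

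**Figure D5:**
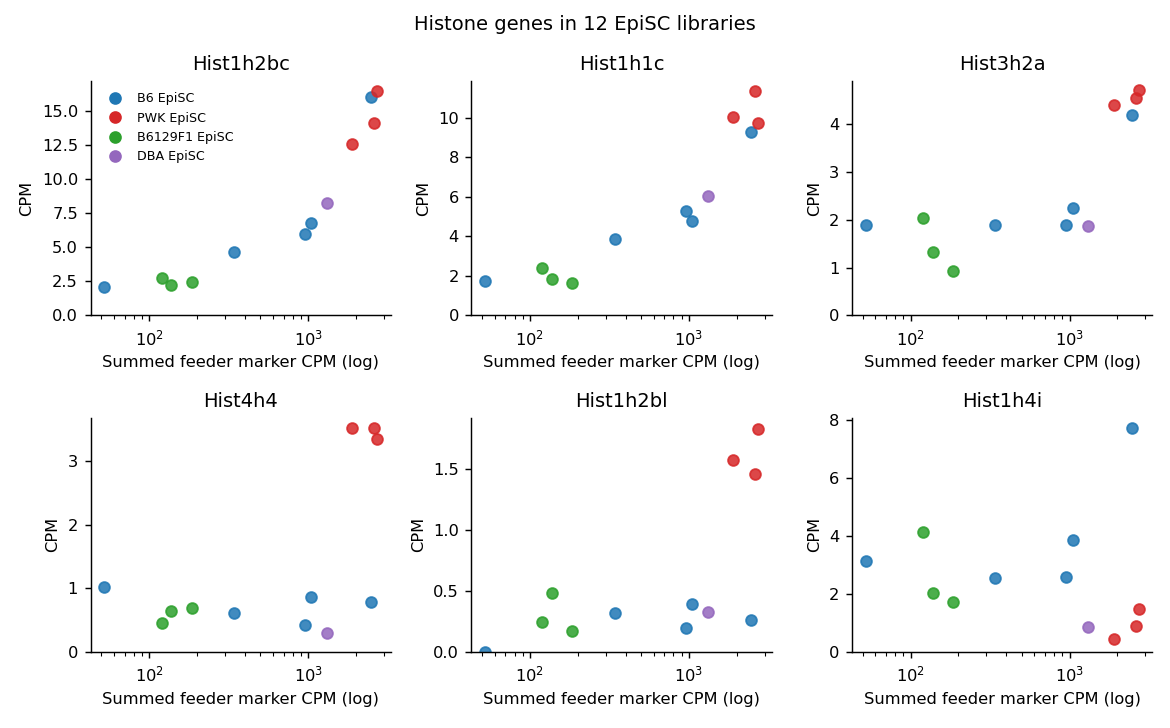
CPM of single histone genes (y axes) against the summed CPM of the 9 feeder markers (x axes, log) in the 12 EpiSC libraries, coloured by strain. Hist1h2bc and Hist1h1c are low where the feeder sum is low, while the PWK libraries of Hist4h4, at 3.35 to 3.51 CPM, lie above B6 replicate 51 at a like feeder sum.

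Between B6129F1 and B6 EpiSCs no difference passed the test. None of 35 histone genes was called by edgeR's quasi-likelihood test, 4 had an unadjusted p under 0.05, and 2.84% of all genes were called. All B6129F1 libraries lay above all B6 libraries in 1 of the 35 and below them in none, as did 8.77% and 6.16% of all genes tested. The DESeq2 alternative called Hist1h1c and Hist1h2bc lower (log2 differences -1.37 and -1.53). The median log2 difference was -0.36, with 27 of 35 below 0, against -0.03 over all genes, and the class sums were 0.544 (H2a) to 0.702 (H4) times those of B6. Without Hist1h1c the log2 ratio of the H1 sums turned from -0.61 to 0.33.

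PWK against B6129F1, which shares its PWK libraries with the comparison above, gave 8 histone genes higher and none lower, where 40% of all genes were called (20.7% higher, 19.4% lower). The median log2 difference was 1.39 against 0.01 over all genes. Beside Hist4h4, the genes were Hist1h1c (2.43, SE 0.48, adjusted p = 0.00293), Hist1h2bc (2.56, adjusted p = 0.00608), Hist3h2a (1.69, adjusted p = 0.00667), Hist1h2br (1.78), Hist1h2bl (2.44), Hist2h3c1 (2.59, adjusted p = 0.0382) and Hist1h2ai (3.22, adjusted p = 0.044). Hist3h2a gave 4.39, 4.53 and 4.71 CPM in PWK against 0.934, 2.03 and 1.33, Hist2h3c1 1.57, 1.99 and 1.56 against 0.138, 0.391 and 0.322, and Hist1h2ai 0.512, 0.232 and 0.700 against 0.0692, 0.0711 and 0. The calls of Hist2h3c1 and Hist1h2ai were lost without any 1 of the 6 libraries compared (adjusted p 0.0689 to 0.126 and 0.0557 to 0.129), and that of Hist1h2bl without any of them but the unnumbered B6129F1 library (0.0598 to 0.1). In all 8 the groups did not overlap. Of the 35 tested, 19 had all PWK libraries above all B6129F1 libraries and 2 had them below, as did 30.5% and 32.1% of all genes. All 9 feeder markers were also higher in PWK here (median log2 difference 3.88), and their part in these differences was not tested.

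The single DBA library allows no test. Of 23 histone genes with a mean of at least 10 counts over the EpiSCs, none was highest in DBA and 5 were lowest there, against 9.85% and 12.9% of all 14272 genes at that level. The 5 were Hist1h1a at 0.221 CPM against 0.231 to 1.42 in the other 11 libraries, Hist1h1b at 0.110 against 0.196 to 0.865, Hist1h2bj at 0.0368 against 0.202 to 1.25, Hist2h3c1 at 0 against 0.0392 to 1.99 and Hist4h4 at 0.294 against 0.429 to 3.51.

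Of the gene lists, the share called between PWK and B6 was below that of all genes (26.5%) for the histone mRNA genes and near it for the other 3. In PWK against B6, 2 of 25 histone mRNA genes were higher and 1 lower, 1 of 11 tested replication-independent histone genes was higher (H2afx, 0.62) and 2 lower (H2afz, -0.50, and H3f3b, -0.24), 1 of 22 chaperone genes was higher and 5 lower, and 1 of 44 S-phase genes was higher and 11 lower. Their median log2 differences were 0.06, -0.19, -0.04 and -0.09. The S-phase genes were lower in 11 of 44, where 14.5% of all genes were. In PWK against B6129F1, 3, 1, 1 and 1 genes of these lists were higher and 3, 2, 6 and 14 lower, where 20.7% and 19.4% of all genes were. In B6129F1 against B6, 1 of the 25 histone mRNA genes was higher and no gene of the other 3 lists was called.

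Between PWK and B6, 72 of the 80 tested peaks at histone genes were not called. With all libraries the share called lower was above that of all peaks, but leaving out 1 library gave only 1 to 6 lower peaks. Of 101 peaks in the table of EpiSC strains 80 were tested, 1 was higher and 7 were lower in PWK, where 5.11% of all 137667 peaks tested were called (1.42% higher, 3.68% lower), and the median log2 difference was 0.16 against 0.04. The higher peak lay at Hist2h2aa2 (chr3:96240207-96240457) and gave 15.1 and 9.27 CPM in PWK replicate BioRep698 and the unnumbered one, 4.32, 4.86, 4.50 and 6.70 in B6 replicates 1, 4, 44 and 51 and 4.32 in DBA (log2 difference 1.26, SE 0.32, adjusted p = 0.0352). A peak inside Hist3h2bb-ps and within 500 bp of Hist3h2a (chr11:58954234-58954304) had 0 counts in PWK and 58 in B6. This makes PWK at least 10.1-fold lower when 3 counts over the group are taken as the floor. The peak was at 0 in DBA as well. The peak shared by Hist2h2aa1 and Hist2h3c1 (chr3:96246099-96246934) had 2 counts in PWK and 70 in B6, a ratio per total count of 18.3 (4.87 to 154, 95% exact), and 4.32 CPM in DBA, and another at Hist2h2aa1 (chr3:96245372-96245607) gave 0 and 1.08 CPM against 3.0 to 5.33. When every library had to hold 10 counts or more, no peak at a histone gene was called lower. How PWK reads were mapped is not given in the sources used here. Mapping and accessibility cannot be told apart for these peaks.

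At the histone genes whose RNA differed between PWK and B6 the start peaks were not called. The peak of Hist4h4 (chr6:136803736-136804419) differed by 0.65 (SE 0.23, adjusted p = 0.149), that shared by Hist1h2ai and Hist1h2bl (chr13:21715904-21716700) by 0.27 (SE 0.24, adjusted p = 0.636), that of Hist1h3h by 0.59 and that of Hist1h4i (chr13:22041039-22041392) by 0.12 (SE 0.23, adjusted p = 0.857). The peak between Hist1h2ap and Hist1h2br had 0 counts in every library of this table too.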

How the data were processed

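RNA-seq covered 16 libraries of mouse EpiSCs and B6 endoderm, and ATAC-seq 11. The authors deposited raw counts per Ensembl gene and per peak, in 1 set of peaks per table, per the file headers. The submitters' processing notes name Salmon, featureCounts and DESeq2 for RNA, and fastp, Bowtie2, MACS2, featureCounts and DESeq2 for ATAC, with build mm10, and no role is given. The labels' protocols give a stranded poly(A) kit. Whether strand was used in counting is not given in the sources used here.

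Samples were grouped by the labels. A further 17 columns of other series are not used here. The 3 PWK endoderm samples match no column by name and are not analysed here. In PWK and B6129F1, 1 column has a name that matches no replicate of the labels, was placed by strain only and is called unnumbered. Both RNA tables give the 5 B6 EpiSC libraries with equal values. Total counts were 22829536 to 66563933 for RNA and 3751526 to 9571127 for ATAC. Levels under 0.1 CPM rest on few counts, and intervals cover counting error only.

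Symbols came from a table of Ensembl names (29270 identifiers matched) and coordinates, strand and promoters from RefSeq (GRCm38.p6). Each whole table was fitted with edgeR 4.0.16 in R 4.3.3: TMM scaling, filterByExpr, robust quasi-likelihood fits, Benjamini-Hochberg adjustment, and a call at an adjusted p under 0.05. The endoderm comparisons used the B6 libraries of their table, the RNA comparisons of strains 1 fit to B6, PWK and B6129F1, and the ATAC comparison of strains the B6 and PWK libraries. CPM values use TMM factors over all RNA libraries, and over each peak table for ATAC. Peaks within 500 bp of a gene were joined to it. Class sums were not tested. The fits were tested on simulated data with known changes. No pair of libraries of 1 group agreed within sampling noise (lowest chi-square divided by the number of features 10.2 for RNA and 2.87 for ATAC).

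Alternatives were RLE scaling, total library size, DESeq2 1.42.0, other count filters, each library left out, a replicate block, fits to the groups compared alone, peaks within 2 kb, and class sums without their highest gene. Leaving out the deeper or shallower endoderm libraries was added after seeing the data. Genes given per library are the 3 with the highest mean CPM in EpiSCs and in endoderm in each class, and those called between strains. Other genes named were chosen after their values were seen. Peaks named are the 3 with the largest called change in each direction, and peaks at genes named for their RNA. Gene lists give called members with a log2 change over 1 in size. The histone genes and the lists were chosen with earlier results of these data known.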

Additional observations from a re-analysis of the deposited data

Results flagged for a closer look

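In groups of 4 or 5 libraries, 66 sets of values were screened for a library far from the others, and 5 were found, where chance marks about 1 in 20 (3.3 of 66). In B6 EpiSCs, replicate 51 stood apart for Hist1h2aj at 0.0753 CPM (the others at 0), for Hist1h4i at 7.72 CPM (the others at 2.54 to 3.85) and for Hist3h2a at 4.18 CPM (the others at 1.88 to 2.24). This library also had the highest feeder marker sum of the B6 EpiSCs, and the part of that in these values was not tested. In B6 endoderm, replicate 2 stood apart for Hist1h2bc at 23.9 CPM (the others at 3.03 to 5.78) and for Hist2h2aa2 at 8.29 CPM (the others at 1.67 to 2.20). It is the library with the fewest counts of the endoderm group and the highest feeder marker sum there, 226 CPM against 62.6 to 71.6.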

How the results depend on the processing

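Of the counts and class ratios recomputed under the alternatives, 345 stayed within 1.5 times (counts) or the spread between replicates (ratios) and 37 moved. Of the values for single genes, 1180 kept their side of the threshold, 29 gained a call, 52 lost it and none reversed. In endoderm, 5 of 8 tested genes rose when at least 10 counts were required in every library, 1 gene fell (Hist2h2be) without the deeper endoderm libraries, and leaving out 1 library gave 18 to 24 risen genes. In PWK against B6, leaving out 1 library gave 2 (without the unnumbered PWK library) to 10 (without B6 replicate 51) higher genes and 0 (without PWK replicate BioRep695 or BioRep698) to 1 lower genes, and no count filter gave 3 lower genes. In B6129F1 against B6, DESeq2 gave 2 lower genes and leaving out 1 library 0 to 2 (2 without B6 replicate 1). In PWK against B6129F1, at least 10 counts gave 5 and a fit to the groups compared alone 14 higher genes, leaving out 1 library gave 5 (without B6129F1 replicate 4, PWK replicate BioRep698 or the unnumbered PWK library) to 6, and lower genes numbered 1 (DESeq2), 2 (no filter), 1 (groups compared alone) and 0 to 1 (1 library left out). For peaks in endoderm, leaving out 1 library gave 25 to 36 lower peaks. For peaks in PWK, a distance of 2 kb gave 2 higher peaks, leaving out 1 library 0 to 2 higher (0 without B6 replicate 1 or 4 or PWK replicate BioRep698, and 2 without B6 replicate 44 or 51) and 1 to 6 lower peaks (1 without B6 replicate 1, 2 without B6 replicate 4 or 51, and 3 without either PWK library), and at least 10 counts gave 0 lower. Without the highest gene, the log2 class ratios of endoderm were 4.12 (H1, without Hist1h1c), 5.67 (H2a, without Hist1h2ap) and 0.22 (H4, without Hist1h4d), and those of H1 were 0.33 in B6129F1 and -0.89 in DBA, all without a test. Same-numbered EpiSC and endoderm libraries correlated in their deviations by 0.0894 to 0.231 (4 RNA pairs) and -0.0067 to 0.0637 (3 ATAC pairs). Libraries of unlike number correlated by -0.266 to 0.132 (RNA) and -0.0581 to 0.0448 (ATAC). For RNA EpiSC replicates 51, 44, 2 and 4 the same-numbered endoderm library had the highest correlation. In ATAC this held for replicate 4 only. The labels do not state a shared source. The main fits have no replicate block, and whether the RNA libraries are pairs is not settled. With the replicate block, 15 genes rose, against 18 without the block on the same libraries (Hist1h1d had an adjusted p of 0.0557 and Hist1h2ai of 0.0714 with the block), and 19 peaks were lower, against 19 without it. The cause of these changes was not tested. Depth limits the genes under about 1 CPM, and the fold of genes at few counts in EpiSCs is known only within its counting interval.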
